A study of Rattus norvegicus with 12 samples.

Results

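The glucocorticoid receptor, encoded by Nr3c1, and 8 genes long used as markers of its activity (Fkbp5, Tsc22d3, Sgk1, Gpd1, Glul, Fam107a, Cebpd and Zbtb16) were followed in rat cells labelled PC12, a line derived from a tumour of the adrenal medulla. These 9 genes, out of 30454 in the count table, were chosen by name with earlier results at hand, namely the differences between the groups in these same 12 libraries. Their levels and differences are therefore given as a description, without p-values. RNA sequencing covered 3 groups of 4 libraries. In the rTMS-MSCs group, cells that had gone through oxygen and glucose deprivation with reoxygenation (OGD/R, a culture model of stroke) received mesenchymal stem cells and repetitive transcranial magnetic stimulation (rTMS, magnetic pulses given here at 10 Hz). In the MSCs group, deprived cells received mesenchymal stem cells without stimulation. In the OGDR group, deprived cells received neither. All groups carried the deprivation, so no comparison with undamaged cells is made here, and the cells were taken at 48 h. The sources used here do not give the species of the stem cells or whether they shared a dish with the PC12 cells. A level is therefore not assigned to either cell population, and in bulk RNA fewer cells of a type and less RNA per cell cannot be told apart. The labels also do not say whether the 4 libraries of a group came from separate cultures, so their spread, and any p-value built on it, may be technical.

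The receptor is a hormone-activated transcription factor. Without ligand it rests in the cytosol in a complex with Hsp90 and cochaperones. Corticosterone, the main glucocorticoid of the rat, releases it to the nucleus, where it binds DNA elements that raise genes of metabolism, feedback and anti-inflammatory control, and interferes with other factors that drive chemokine genes. In the adrenal medulla, glucocorticoids from the cortex help to maintain the chromaffin phenotype. Many of these genes also answer to other signals, such as osmotic stress for Sgk1 and low oxygen for Ddit4, and neither hormone levels nor receptor binding to DNA were measured in the data used here.

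Between 18246250 and 20471838 reads were counted in genes per library, so that 1 CPM (the unit of level used throughout, a count scaled to library size) stood for 18.5 to 20.7 counts, and 13692 genes passed the filter on low counts, Zbtb16 being the member that did not. The chromaffin identity of the cells was weakly marked. Of 14 chromaffin markers, 4 (Ddc, Hand2 and Syt1 among them) had no count in any library and 7 stayed under 1 CPM throughout. The neurosecretory gene Scg2 made up most of the summed chromaffin level, which spanned 210 to 227 CPM in rTMS-MSCs libraries, 199 to 246 CPM in MSCs libraries and 284 to 351 CPM in OGDR libraries. A list of 10 glial markers summed to 1058 to 1162 CPM in rTMS-MSCs, 1084 to 1155 CPM in MSCs and 928 to 1008 CPM in OGDR. Of the 12 stromal markers, Lum had no count and 4 stayed under 1 CPM, and the sums were 2567 to 2970 CPM in rTMS-MSCs, 3140 to 3495 CPM in MSCs and 3004 to 3221 CPM in OGDR. Of the 7 macrophage markers, Adgre1 had no count and 5 stayed under 1 CPM, with sums of 64.4 to 78.0 CPM in rTMS-MSCs, 51.3 to 66.8 CPM in MSCs and 51.9 to 59.9 CPM in OGDR. The chromaffin and glial sums of the OGDR libraries did not overlap those of the other groups, and the stromal sums of the rTMS-MSCs libraries, made up mostly of Fn1, lay below those of both other groups. Single markers did not all follow these sums. In MSCs over OGDR the ratio was 0.692 for Scg2 but 4.39 for Th, which averaged 0.673 CPM in MSCs. In rTMS-MSCs over OGDR it was 0.903 for Fn1 and 0.844 for Pdgfra, but 1.21 for Pdgfrb and 1.46 for Nt5e. Among glial markers it was 2.36 there for Gfap but 0.791 for Erbb3. The part of these shifts in the results was not tested. In a principal component analysis, library 3 of rTMS-MSCs (at 32.4) and library 3 of MSCs (at -30.8) lay at opposite ends of the second axis, so the calls named between these groups are also given without both.

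The receptor binds as a pair to a palindrome of AGAACA, any 3 bases, and TGTTCT. RefSeq promoter windows (build GRCr8, 250 bases before to 50 bases after each start) were found for 6 members, Nr3c1, Fkbp5, Tsc22d3, Sgk1, Glul and Fam107a, with 12 windows in all. A looser form of the palindrome (G, any base, ACA, any 3 bases, TGT, any base, C, which reads alike on both strands) occurred in 1 of these windows, that of Fam107a, against 0.439% of all 33469 windows. The strict palindrome occurred in none of the 12 and in 0.0149% of all windows. The arm TGTTCT alone, searched on both strands, occurred in the same Fam107a window, where it overlaps the looser element, and in 20.7% of all windows. Among 34 windows of genes known to be raised by glucocorticoids, described further on, 2 held the looser form, those of Orm1 and Map3k6. The 3 windows shown are the matches within the members and the gene lists, which were chosen with the differences between the groups known. Matching windows of other genes were not set against the differences between the groups. The looser element is in capitals, in Fam107a together with the last base of the overlapping arm. The windows lie at chr15:19046331-19046630 for Fam107a, chr5:81788259-81788558 for Orm1 and chr5:150723995-150724294 for Map3k6, each on the plus strand.
Fam107a: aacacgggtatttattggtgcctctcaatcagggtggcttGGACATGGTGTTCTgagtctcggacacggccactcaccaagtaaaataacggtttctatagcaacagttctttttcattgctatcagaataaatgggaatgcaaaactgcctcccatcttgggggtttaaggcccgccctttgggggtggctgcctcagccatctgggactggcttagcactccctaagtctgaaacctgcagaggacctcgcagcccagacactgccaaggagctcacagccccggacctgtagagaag
Orm1: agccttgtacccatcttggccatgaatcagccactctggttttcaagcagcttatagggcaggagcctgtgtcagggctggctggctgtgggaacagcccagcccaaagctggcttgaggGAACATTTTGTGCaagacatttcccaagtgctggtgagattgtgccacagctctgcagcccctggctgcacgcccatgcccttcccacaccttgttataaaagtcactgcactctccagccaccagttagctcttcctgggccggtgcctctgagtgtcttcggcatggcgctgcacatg
Map3k6: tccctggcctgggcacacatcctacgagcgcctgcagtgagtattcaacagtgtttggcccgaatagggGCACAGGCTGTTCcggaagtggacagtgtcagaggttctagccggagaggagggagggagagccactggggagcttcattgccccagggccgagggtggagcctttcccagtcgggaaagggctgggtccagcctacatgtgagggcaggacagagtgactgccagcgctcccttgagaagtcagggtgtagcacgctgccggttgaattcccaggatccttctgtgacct
The element began 210 bases before the start in Fam107a, 130 bases before it in Orm1 and 181 bases before it in Map3k6. A match in these windows is a description of letters and not a site, and the lack of a match says only that the letters are not in that window.

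The receptor transcript itself was lowest with stimulation. Nr3c1 (ENSRNOG00000014096) stood at 88.5, 79.7, 72.4 and 90.6 CPM in the rTMS-MSCs libraries, at 99.1, 99.1, 109.6 and 99.3 CPM in the MSCs libraries and at 103, 108, 109.8 and 116 CPM in the OGDR libraries. Every rTMS-MSCs library lay below every other library, while the MSCs and OGDR values overlapped. The means were 82.8 ± 8.40 CPM in rTMS-MSCs, 102 ± 5.24 CPM in MSCs and 109 ± 5.38 CPM in OGDR (SD, n = 4 each). The fitted log2 difference was -0.30 ± 0.0702 (SE) for rTMS-MSCs over MSCs, a ratio of 0.814. For rTMS-MSCs over OGDR it was -0.40 ± 0.0701, a ratio of 0.758, and for MSCs over OGDR it was -0.10 ± 0.0697. The difference of rTMS-MSCs from MSCs shrank to -0.20, and no longer passed the threshold, when the libraries numbered 3 of both groups were left out. Those are the library with the lowest Nr3c1 in rTMS-MSCs and the highest in MSCs.

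**Figure D1:**
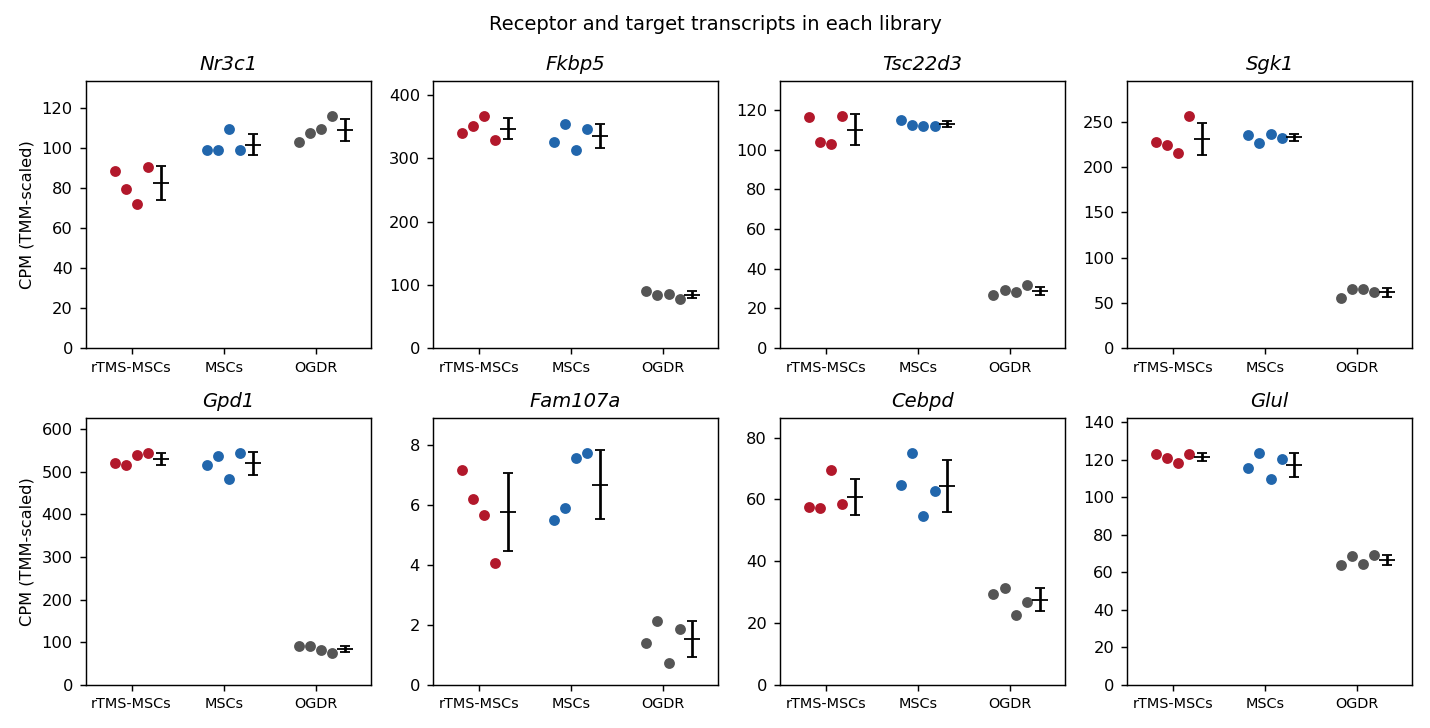
CPM of the receptor and 7 target transcripts, 1 point per library, in rTMS-MSCs, MSCs and OGDR (n = 4 each), with the mean and SD as a bar beside the points and each axis starting at 0. All 7 targets show the rTMS-MSCs and MSCs libraries together above the OGDR libraries, while Nr3c1 is lowest in rTMS-MSCs (72.4 to 90.6 CPM).

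The 7 measured targets were all higher in both stem cell groups than in OGDR, by 1.76 to 6.29 times, and for none did the stimulated group lie apart from the unstimulated one. The feedback genes came out nearly alike. Fkbp5 (ENSRNOG00000022523) encodes an Hsp90 cochaperone that lowers the hormone affinity of the receptor and so closes a negative feedback loop. It stood at 340, 352, 367 and 329 CPM in rTMS-MSCs, at 325, 354, 314 and 346 CPM in MSCs and at 90.7, 84.0, 84.9 and 77.4 CPM in OGDR. The lowest MSCs library was 3.46 times the highest OGDR library. The means were 347 ± 16.5 CPM in rTMS-MSCs, 335 ± 18.8 CPM in MSCs and 84.2 ± 5.46 CPM in OGDR (SD, n = 4 each). The log2 difference was 1.99 ± 0.0607 for MSCs over OGDR (3.97-fold) and 2.04 ± 0.0608 for rTMS-MSCs over OGDR (4.12-fold). Tsc22d3 (ENSRNOG00000056135) encodes the leucine zipper protein GILZ, which carries part of the anti-inflammatory action of the hormone by binding factors such as NF-kappaB. Its level was 116, 104, 103 and 117 CPM in rTMS-MSCs, 115, 113, 112 and 112 CPM in MSCs and 26.7, 29.1, 28.1 and 31.6 CPM in OGDR. The MSCs libraries varied little, with a coefficient of variation of 1.35%, and no library of either stem cell group came within 3-fold of the highest OGDR library. Tsc22d3 was 3.91-fold higher in MSCs than in OGDR (log2 1.97 ± 0.0684) and 3.81-fold higher in rTMS-MSCs than in OGDR (log2 1.93 ± 0.0684).

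The kinase and the metabolic enzymes gave both ends of the range. Sgk1 (ENSRNOG00000011815) encodes a serine/threonine kinase that controls ion channels and cell survival. It stood at 228, 224, 215 and 257 CPM in rTMS-MSCs, 235, 227, 237 and 233 CPM in MSCs and 55.1, 64.8, 65.3 and 61.6 CPM in OGDR. That made it 3.77-fold higher in MSCs (log2 1.92 ± 0.0653) and 3.74-fold higher in rTMS-MSCs (log2 1.90 ± 0.0653), both over OGDR. Gpd1 (ENSRNOG00000056457) encodes the cytosolic glycerol-3-phosphate dehydrogenase, which links glycolysis to glycerolipid synthesis and to the transfer of reducing equivalents into mitochondria. Its level was 519, 515, 539 and 545 CPM in rTMS-MSCs, 516, 535, 482 and 543 CPM in MSCs and 91.1, 90.1, 81.0 and 74.4 CPM in OGDR. The lowest MSCs library was 5.29 times the highest OGDR library, the widest gap of the 7 targets. The fitted ratio of Gpd1 was 6.17 in MSCs over OGDR (log2 2.62 ± 0.0647) and 6.29 in rTMS-MSCs over OGDR (log2 2.65 ± 0.0647). Glul (ENSRNOG00000049560), glutamine synthetase, turns glutamate and ammonia into glutamine and is a classic glucocorticoid-induced enzyme of glia. Glul stood at 123, 121, 118 and 123 CPM in rTMS-MSCs, 116, 124, 109.5 and 121 CPM in MSCs and 63.8, 69.0, 64.7 and 69.2 CPM in OGDR. Neither stem cell group overlapped OGDR, yet the ratios over OGDR were the smallest of the 7, at 1.76 in MSCs (log2 0.82 ± 0.0575) and 1.82 in rTMS-MSCs (log2 0.87 ± 0.0574). RefSeq lists 2 pseudogenes of Glul, so reads could be split between near-identical copies and its level is uncertain.

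The remaining targets were a cytoskeletal regulator and transcription factors. Fam107a (ENSRNOG00000033261), also called DRR1, encodes an actin-binding protein that is induced by stress and glucocorticoids in the brain. It was the scarcest tested target, with 144, 118, 107 and 81 counts in rTMS-MSCs, 109, 115, 140 and 146 counts in MSCs and 29, 43, 15 and 36 counts in OGDR. On the CPM scale these were 7.17, 6.21, 5.67 and 4.06 CPM in rTMS-MSCs, 5.49, 5.90, 7.58 and 7.76 CPM in MSCs and 1.41, 2.12, 0.723 and 1.87 CPM in OGDR. The gap to OGDR held in every library, but the coefficient of variation within OGDR was 40.04%. The ratio of Fam107a was 4.36 in MSCs over OGDR (log2 2.12 ± 0.254) and 3.77 in rTMS-MSCs over OGDR (log2 1.92 ± 0.255), with standard errors larger than for any other target. Cebpd (ENSRNOG00000050869) encodes a C/EBP transcription factor that acts early in the acute phase response and in adipocyte differentiation. It measured 57.7, 57.2, 69.4 and 58.5 CPM in rTMS-MSCs, 64.7, 75.2, 54.6 and 62.6 CPM in MSCs and 29.4, 31.3, 22.6 and 26.9 CPM in OGDR. Cebpd was 2.33-fold higher in MSCs (log2 1.22 ± 0.105) and 2.20-fold higher in rTMS-MSCs (log2 1.14 ± 0.105), both over OGDR. Zbtb16 (ENSRNOG00000029980), a zinc finger transcription factor that is strongly induced by glucocorticoids in many tissues, was close to unmeasured here. It had 1 count in library 3 of MSCs and none in the other 11 libraries. With a limit of 3 counts over the 4 libraries of a group, a count of 0 allows up to 0.0385 CPM in rTMS-MSCs and 0.0371 CPM in OGDR, for counting error only, and no comparison was made for this gene.

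**Figure D2:**
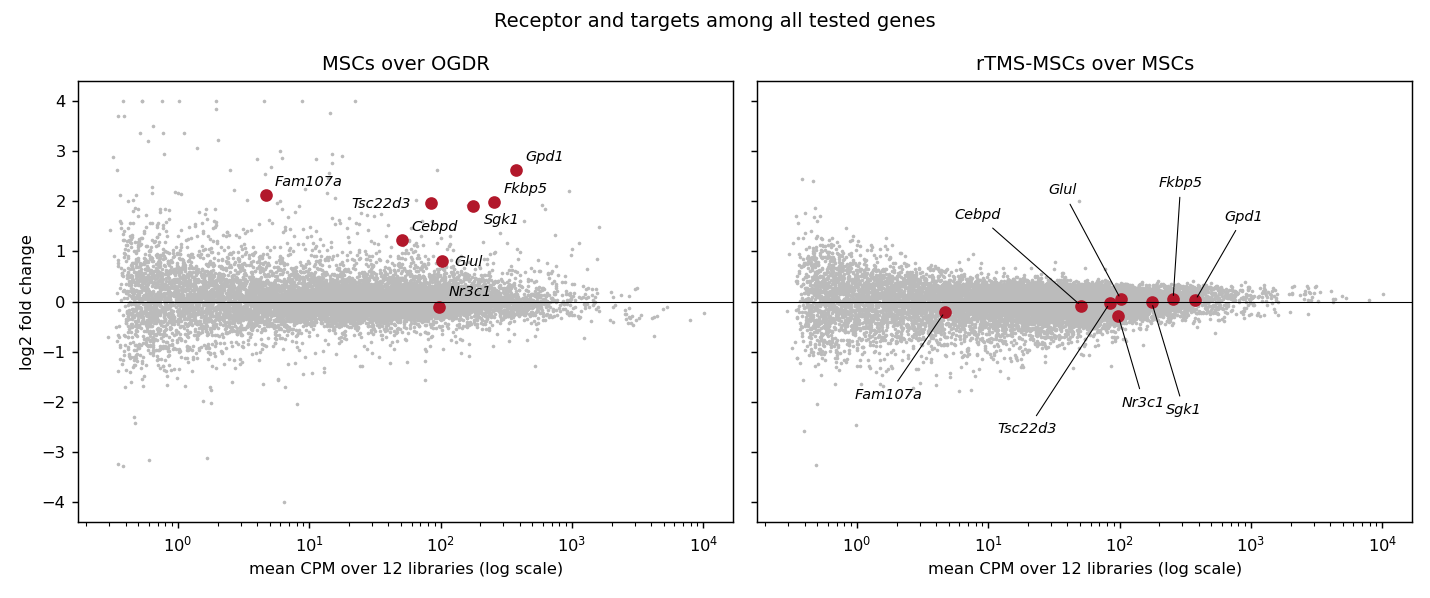
Log2 fold change against mean CPM over the 12 libraries (log scale) for the 13692 tested genes (grey) and the 8 tested members (red), for MSCs over OGDR on the left and rTMS-MSCs over MSCs on the right, with grey values beyond 4 in either direction drawn at 4. On the left 7 members stand above zero and Nr3c1 lies at -0.10, while on the right all 8 lie between -0.30 and 0.05.

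Counted together, 7 of 8 tested members were called higher in MSCs than in OGDR (adjusted p under 0.05) and none lower, where 11.6% of all tested genes were called higher and 8.63% lower. Their median log2 difference was 1.94, against -0.0021 over all tested genes. In rTMS-MSCs against OGDR, 7 were called higher and 1, Nr3c1, lower, where 16.2% of all genes were called higher and 16.2% lower. The median there was 1.91, against 0.0080 over all tested genes. In rTMS-MSCs against MSCs no member was called higher and 1, Nr3c1, was called lower, where 7.14% of genes were called higher and 10.9% lower. The libraries did not overlap for 7 members in MSCs against OGDR, for 8 in rTMS-MSCs against OGDR and for 1 in rTMS-MSCs against MSCs. Over all tested genes the groups did not overlap for 24.7% in MSCs against OGDR, 30.3% in rTMS-MSCs against OGDR and 19.0% in rTMS-MSCs against MSCs. The members were listed with these contrasts known, and the comparisons share libraries, so nothing is read from these counts. Ranked by log2 difference among the 13692 genes for MSCs over OGDR, Gpd1 stood at place 34 from the top and Fam107a at 49. Fkbp5, Tsc22d3 and Sgk1 stood close together at 56, 58 and 61. Cebpd stood at 190 and Glul at 466.

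Between the stimulated and unstimulated groups the 7 targets differed by at most 0.21 on the log2 scale. The 95% interval for rTMS-MSCs over MSCs was -0.07 to 0.17 for Fkbp5, -0.17 to 0.10 for Tsc22d3 and -0.14 to 0.12 for Sgk1. For the metabolic enzymes it was -0.10 to 0.15 for Gpd1 and -0.07 to 0.17 for Glul. These 5 intervals are narrow beside the differences from OGDR. For Cebpd the interval was -0.29 to 0.13, and for Fam107a, with its low counts, it was -0.67 to 0.26, which leaves room for a sizeable decrease or a small increase. Only Nr3c1 had an interval clear of zero, at -0.44 to -0.15.

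**Figure D3:**
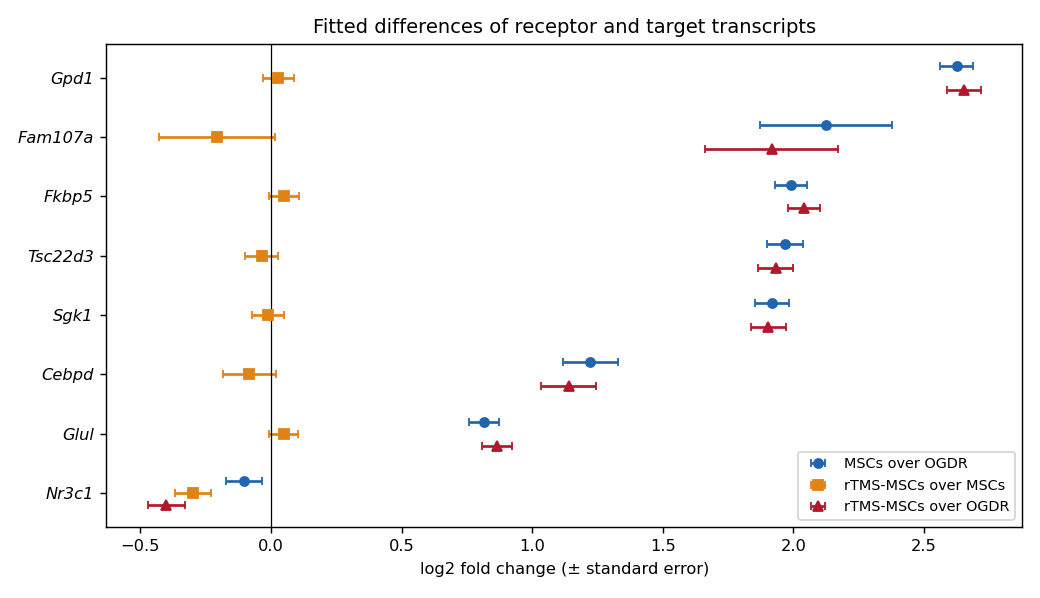
Log2 fold change with its standard error for the 8 tested members in MSCs over OGDR (circles), rTMS-MSCs over MSCs (squares) and rTMS-MSCs over OGDR (triangles), from 1 fit over the 12 libraries. Both comparisons with OGDR put the 7 targets between 0.82 and 2.65, while rTMS-MSCs over MSCs lies between -0.21 and 0.05 for them and at -0.30 for Nr3c1.

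Profiles over the 3 groups were then compared gene by gene. Likeness was taken as the distance between the centred log2 CPM of the 3 group means, so it rests on 3 points and is a description. Among the members, Tsc22d3 and Sgk1 lay closest at 0.0338, Fkbp5 and Tsc22d3 were 0.0851 apart, Glul and Cebpd 0.293 apart, and Nr3c1 and Gpd1 farthest at 2.38. Of 10251 named genes with a mean of at least 5 CPM, the 5 most like Fkbp5 included Plxnb3 (distance 0.0764), Tsc22d3 (0.0851), Sgk1 (0.0983) and Cp (0.11). Plxnb3, a plexin receptor for semaphorins, averaged 20.5 CPM in rTMS-MSCs, 21.4 CPM in MSCs and 5.13 CPM in OGDR. Cp, the copper-carrying ferroxidase ceruloplasmin, averaged 84.4 CPM in rTMS-MSCs, 89.5 CPM in MSCs and 21.9 CPM in OGDR. The genes most like Nr3c1 were Sec24a (0.0051), Tbc1d5 (0.0066), Entpd5 (0.0102), Samd8 (0.0109) and Arid1b (0.0127). Sec24a, a component of the COPII vesicle coat, averaged 42.3 CPM in rTMS-MSCs, 52.5 CPM in MSCs and 55.8 CPM in OGDR.

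The proteins that fold, activate and assist the receptor were followed with a list of 22 genes, of which 21 were tested. In rTMS-MSCs against MSCs, 1 rose, 5 fell and 15 did not pass the test, where 7.14% of all tested genes rose and 10.9% fell. The median log2 difference was -0.07, against 0.015 over all tested genes. The genes that fell were the coactivators Ncoa2 and Ncoa3, the acetyltransferase Ep300, the corepressor Ncor1 and the efflux pump Abcb1b. Ncoa2, which binds the hormone-activated receptor directly, had 14.7, 19.7, 10.7 and 16.8 CPM in rTMS-MSCs, 28.2, 26.1, 33.2 and 22.4 CPM in MSCs and 23.1, 19.4, 33.0 and 25.3 CPM in OGDR. It was lower in rTMS-MSCs than in MSCs by a log2 difference of -0.83 ± 0.168 (adjusted p = 0.00354, edgeR's quasi-likelihood test). Ncoa3 averaged 17.3 ± 2.77 CPM in rTMS-MSCs and 25.2 ± 2.32 CPM in MSCs (log2 -0.55 ± 0.108, adjusted p = 0.00321), with OGDR at 28.6 CPM. Ep300 averaged 60.7 ± 9.94 CPM in rTMS-MSCs and 85.3 ± 11.2 CPM in MSCs (log2 -0.49 ± 0.107, adjusted p = 0.00535). The plot of receptor and coregulator transcripts shows that Ncoa2, Ncoa3, Ep300 and Ncor1 were each lowest of the 12 libraries in library 3 of rTMS-MSCs, and highest of the MSCs group in library 3 of MSCs, as Nr3c1 was. Without those libraries Ncoa2 still differed by -0.58 (adjusted p = 0.0156), Ncoa3 by -0.43 (adjusted p = 0.0241) and Ep300 by -0.32 (adjusted p = 0.0344). Ncor1 stood at 123, 129, 102 and 131 CPM in rTMS-MSCs, at 154, 146, 181 and 145 CPM in MSCs and at 162, 152, 180 and 168 CPM in OGDR. It was lower in rTMS-MSCs than in OGDR by -0.45 (adjusted p = 0.000321) and lower than in MSCs by -0.37 ± 0.0819 (adjusted p = 0.00605), which shrank to -0.22 without both libraries numbered 3 (adjusted p = 0.0444).

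**Figure D4:**
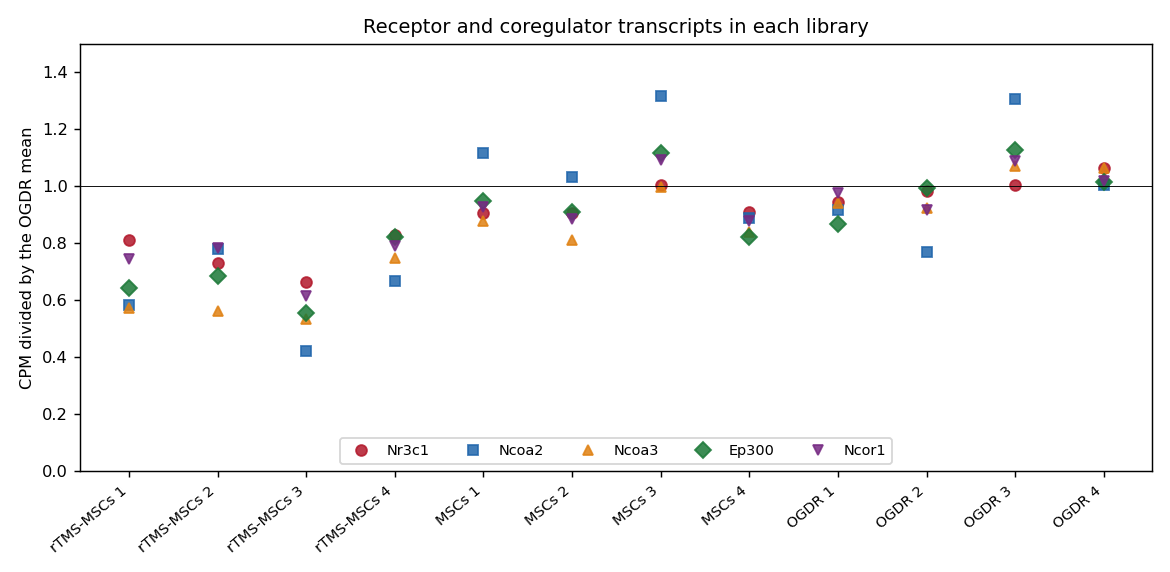
CPM of Nr3c1, Ncoa2, Ncoa3, Ep300 and Ncor1 in each library, divided by the mean of the 4 OGDR libraries of that gene, with a line at 1. The rTMS-MSCs libraries lie below 1 for all 5 genes, lowest in library 3.

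Among the chaperones the differences were small. With stem cells alone, MSCs against OGDR, 2 of the 21 tested genes of this list rose and 4 fell, with a median of -0.08, where 11.6% of all tested genes rose and 8.63% fell. The genes that fell were the cochaperones Ppid (48.2 CPM in MSCs and 61.1 CPM in OGDR, log2 -0.34 ± 0.0792, adjusted p = 0.00367) and Ptges3 (268 CPM in MSCs and 298 CPM in OGDR, adjusted p = 0.0445) and the chaperones Hspa8 (2353 CPM in MSCs and 2785 CPM in OGDR, adjusted p = 0.00658) and Hsp90ab1 (2362 CPM in MSCs and 2644 CPM in OGDR, adjusted p = 0.0136). The drug and steroid exporter Abcb1b rose in MSCs, to 69.4 ± 3.30 CPM against 55.2 ± 3.41 CPM in OGDR (log2 0.33 ± 0.0697, adjusted p = 0.00159). With stimulation it fell to 53.4 CPM, by -0.38 relative to MSCs (adjusted p = 0.00222), and by -0.34 without both libraries numbered 3 (adjusted p = 0.008). Leaving out a single library ended some of these calls, for Ptges3 without OGDR 1, OGDR 3, OGDR 4, MSCs 1, MSCs 2 or rTMS-MSCs 2 and for Hsp90ab1 without OGDR 1. The log2 differences over the alternatives were -0.18 to -0.12 for Ptges3 and -0.18 to -0.14 for Hsp90ab1. With stimulation, rTMS-MSCs against MSCs, the gene that rose was Hsp90ab1, by 0.15 (adjusted p = 0.0253). That call was lost without MSCs 3, rTMS-MSCs 2 or rTMS-MSCs 3, and without both libraries numbered 3 the difference was 0.10 (adjusted p = 0.176). In rTMS-MSCs against OGDR, 1 gene of the list rose and 9 fell, with a median of -0.09, where 16.2% of all tested genes rose and 16.2% fell. The gene that rose there was Hsd11b1, whose enzyme regenerates active corticosterone inside cells, at 26.0 ± 2.30 CPM in rTMS-MSCs and 20.1 ± 2.18 CPM in OGDR (log2 0.37 ± 0.122, adjusted p = 0.0246). Its call was lost without OGDR 2 or rTMS-MSCs 3, and without both libraries numbered 3 its difference was 0.31 (adjusted p = 0.0507). Hsp90aa1, an inducible Hsp90 isoform, fell to 792 CPM in rTMS-MSCs, against 971 CPM in OGDR (log2 -0.29, adjusted p = 0.00202). Abcb1a, a relative of Abcb1b in this list, averaged 6.81 CPM in rTMS-MSCs, 7.34 CPM in MSCs and 9.49 CPM in OGDR. It was lower in rTMS-MSCs than in OGDR (log2 -0.48, adjusted p = 0.0165). In MSCs against OGDR it did not pass, and its log2 difference of -0.37 was opposite in sign to that of Abcb1b. The mineralocorticoid receptor Nr3c2, which also binds corticosterone, was scarce, at 1.11 CPM in rTMS-MSCs, 1.07 CPM in MSCs and 1.10 CPM in OGDR, and passed no test.

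Other genes known to be raised by glucocorticoids were mostly higher with stem cells as well. Of 35 such genes, 27 were tested. In MSCs against OGDR 18 rose, none fell and 9 did not pass, with a median log2 difference of 0.85, where 11.6% of all tested genes rose and 8.63% fell. In rTMS-MSCs against OGDR 21 rose, none fell and 6 did not pass, with a median of 0.93, where 16.2% of all tested genes rose and 16.2% fell. The list was drawn up with earlier results of these libraries known, so its direction is not independent evidence. Per1, a clock gene with receptor-bound elements in its promoter, had 146, 146, 139 and 133 CPM in rTMS-MSCs, 117, 132, 118 and 114 CPM in MSCs and 20.6, 20.0, 17.8 and 19.4 CPM in OGDR. The difference of MSCs from OGDR was 2.63 ± 0.0696 on the log2 scale (adjusted p = 2.28e-16). Aqp1, a water channel, averaged 1311 ± 12.7 CPM in MSCs and 282 ± 7.09 CPM in OGDR (log2 2.22 ± 0.0498, adjusted p = 2.68e-17). Ddit4, an inhibitor of mTORC1 that is also induced by low oxygen, averaged 138 ± 5.43 CPM in MSCs and 57.2 ± 3.53 CPM in OGDR (log2 1.27, adjusted p = 2.11e-12). Orm1, the acute phase protein orosomucoid, whose promoter window is printed above, was counted only in the stem cell groups. It had 15.04, 13.5, 14.6 and 11.2 CPM in rTMS-MSCs and 14.8, 14.9, 8.66 and 12.8 CPM in MSCs, with 0 counts in all 4 OGDR libraries. Against a floor of 3 counts over the OGDR group (0.0371 CPM) it was at least 365-fold higher in rTMS-MSCs and at least 345-fold higher in MSCs. Map3k6, the other gene with a printed window, is a stress-activated kinase and averaged 82.8 CPM in rTMS-MSCs, 79.8 CPM in MSCs and 43.4 CPM in OGDR (log2 0.88 for MSCs over OGDR, adjusted p = 5.91e-09). Classic liver targets such as Tat and Pck1 had no count in any library.

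Within this list stimulation moved some genes up and others down. Relative to MSCs, 7 rose in rTMS-MSCs, 2 fell and 18 did not pass, with a median of 0.08 against 0.015 over all tested genes, of which 7.14% rose and 10.9% fell. Rhob, a small GTPase, averaged 291 ± 16.9 CPM in rTMS-MSCs and 232 ± 3.76 CPM in MSCs (log2 0.32, adjusted p = 0.00135). Nfkbia, the inhibitor that holds NF-kappaB in the cytosol, averaged 89.6 ± 6.07 CPM in rTMS-MSCs and 67.9 ± 2.34 CPM in MSCs (log2 0.40, adjusted p = 0.00207). In both genes every rTMS-MSCs library lay above every MSCs library. The metallothioneins Mt1 (43.7 ± 10.2 CPM in rTMS-MSCs and 31.0 ± 2.37 CPM in MSCs) and Mt2A (66.9 ± 10.2 CPM in rTMS-MSCs and 51.4 ± 4.26 CPM in MSCs) rose at an adjusted p of 0.0152 each. Ddit4 fell to 108 ± 3.18 CPM in rTMS-MSCs, against 138 CPM in MSCs (log2 -0.36, adjusted p = 0.00122). Klf9, a transcription factor that acts downstream of the receptor, fell to 22.4 ± 6.40 CPM in rTMS-MSCs, against 32.9 ± 4.87 CPM in MSCs (log2 -0.55, adjusted p = 0.0122). Without both libraries numbered 3, 3 genes of the list rose and 1 fell. Rhob then differed by 0.29 (adjusted p = 0.0028), Nfkbia by 0.36 (adjusted p = 0.00786) and Ddit4 by -0.37 (adjusted p = 0.00124). The calls of Mt1 (log2 0.35, adjusted p = 0.0873), Mt2A (log2 0.23, adjusted p = 0.139) and Klf9 (log2 -0.37, adjusted p = 0.103) were lost. Leaving out MSCs 1 alone ended the calls of Mt1 and Mt2A, and leaving out MSCs 3 alone ended those of Mt2A and Klf9. Fewer genes were called over all tested genes too in each of these fits, such as 1006 without MSCs 3 against 2475 with all libraries. The shares above therefore do not apply to these fits, and their gene counts are given further on.

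**Figure D5:**
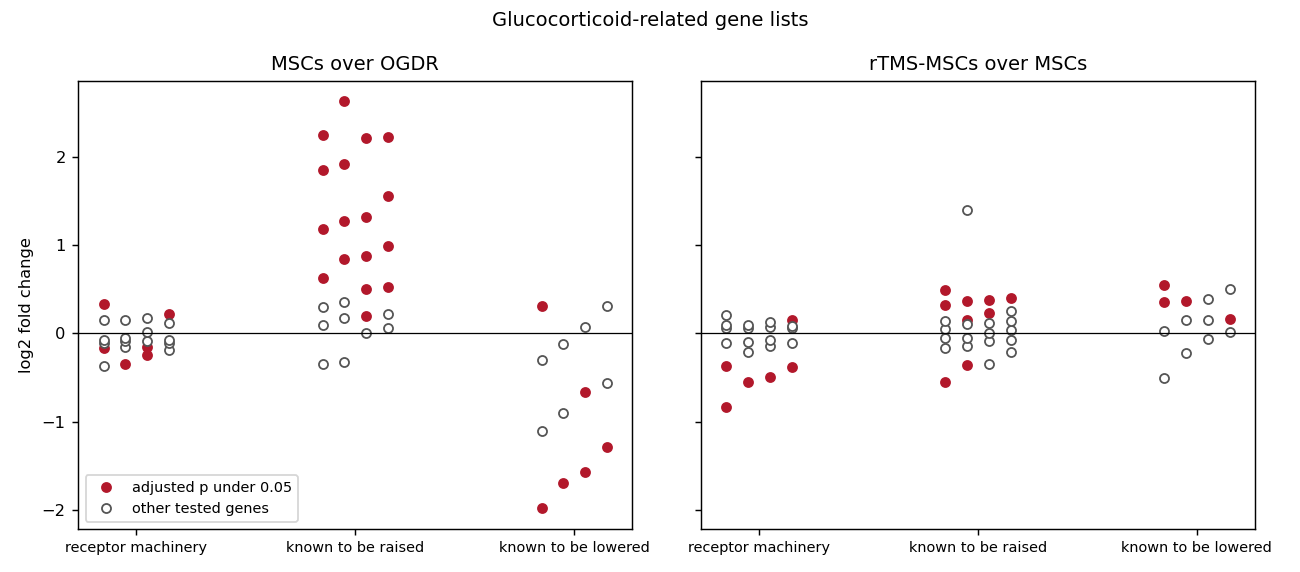
Log2 fold change of each tested gene of the lists of receptor machinery, genes known to be raised and genes known to be lowered by glucocorticoids, for MSCs over OGDR on the left and rTMS-MSCs over MSCs on the right, with filled points where the adjusted p was under 0.05. Orm1 is left out because it had no count in OGDR. On the left 18 genes known to be raised pass above zero with Orm1 counted among them, and none below. Of the genes known to be lowered 5 pass below zero and 1 above, and of the machinery 4 pass below and 2 above. Over all tested genes 11.6% were called higher there and 8.63% lower.

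Genes known to be lowered by glucocorticoids, mostly chemokines, cytokines and proteases, were less uniform. Of 24 listed genes 13 were tested, and cytokines such as Il1b, together with the hormone genes Pomc, Crh and Prl, were too scarce. The tested genes Il6, Tnf, Lif, Vcam1, Nos2 and Mmp3 passed in no comparison. Lif, which was well counted, averaged 30.7 CPM in rTMS-MSCs, 30.3 CPM in MSCs and 33.0 CPM in OGDR. Il6, Tnf, Nos2 and Mmp3 were scarce, at 0.807, 1.43, 0.438 and 0.402 CPM in MSCs. Their log2 differences for MSCs over OGDR were -0.57 ± 0.430, -0.30 ± 0.348, -0.90 ± 0.450 and -1.10 ± 0.498 in that order. With errors of this size, these genes cannot be called unchanged. Of the 13 tested genes, 1 rose, 5 fell and 7 did not pass in MSCs against OGDR. The median was -0.66, where 11.6% of all tested genes rose and 8.63% fell. The monocyte chemokine Ccl2 had 379, 353, 413 and 389 CPM in rTMS-MSCs, 354, 342, 323 and 344 CPM in MSCs and 827, 836, 809 and 855 CPM in OGDR. The difference of MSCs from OGDR was -1.29 on the log2 scale (adjusted p = 2.34e-13). Ccl7, a related chemokine, averaged 45.4 ± 2.97 CPM in MSCs and 135 ± 8.04 CPM in OGDR (log2 -1.57, adjusted p = 4.19e-13). Ccl4 averaged 3.44 ± 0.658 CPM in MSCs and 11.2 ± 1.11 CPM in OGDR (log2 -1.70, adjusted p = 6.02e-08). The gelatinase Mmp9 was scarce in all groups but fell too, to 0.819 CPM in MSCs, against 3.26 CPM in OGDR (log2 -1.98 ± 0.345, adjusted p = 0.000243). Icam1, an adhesion molecule, went the other way, at 56.7 ± 4.45 CPM in MSCs and 45.6 ± 1.18 CPM in OGDR (log2 0.32, adjusted p = 0.00268). In rTMS-MSCs against OGDR 2 rose, 4 fell and 7 did not pass, with a median of -0.41, where 16.2% of all tested genes rose and 16.2% fell. The neutrophil chemokine Cxcl1 rose there, to 25.5 CPM in rTMS-MSCs against 16.1 CPM in OGDR (log2 0.67, adjusted p = 0.000232). Relative to MSCs, 4 rose in rTMS-MSCs, none fell and 9 did not pass, with a median of 0.16, where 7.14% of all tested genes rose and 10.9% fell. Those 4 were the chemokines Ccl4, Ccl2, Ccl5 and Cxcl1, with log2 differences of 0.55, 0.17, 0.36 and 0.36 and adjusted p of 0.0243, 0.0302, 0.0345 and 0.0406. All 4 calls were lost without both libraries numbered 3, where adjusted p ran from 0.0547 to 0.233, although the log2 differences were then 0.61 for Ccl4, 0.11 for Ccl2, 0.32 for Ccl5 and 0.33 for Cxcl1. They were also lost without library 3 of rTMS-MSCs alone. The calls of Ccl4, Ccl5 and Cxcl1 were lost without MSCs 1 alone or MSCs 2 alone. Without MSCs 3 those of Ccl2, Ccl5 and Cxcl1 were lost. Those of Ccl5 and Cxcl1 were lost without rTMS-MSCs 1, and that of Cxcl1 without rTMS-MSCs 2.

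Relatives that passed a test did not share the size of the members' differences. This list of 14 genes was added later than the others, and 10 were tested, of which 3 rose and none fell in MSCs against OGDR, where 11.6% of all tested genes rose and 8.63% fell. Tsc22d1 averaged 246 CPM in rTMS-MSCs, 226 CPM in MSCs and 168 CPM in OGDR (log2 0.43 ± 0.0512 for MSCs over OGDR, adjusted p = 2.31e-06). Tsc22d4 averaged 140 CPM in rTMS-MSCs, 124 CPM in MSCs and 86.4 CPM in OGDR (log2 0.52 ± 0.0677 for MSCs over OGDR, adjusted p = 8.29e-06). Both belong to the same leucine zipper family as Tsc22d3, and their log2 differences were smaller than its 1.97. Gpd1l, a homologue of Gpd1, averaged 46.4 CPM in rTMS-MSCs, 46.7 CPM in MSCs and 33.3 CPM in OGDR (log2 0.49 ± 0.0735 for MSCs over OGDR, adjusted p = 4.72e-05). Gpd2, the mitochondrial partner of Gpd1 in the glycerol phosphate shuttle, averaged 36.6 CPM in rTMS-MSCs, 48.7 CPM in MSCs and 48.1 CPM in OGDR, and fell in rTMS-MSCs relative to MSCs (log2 -0.41 ± 0.0909, adjusted p = 0.00577). Without both libraries numbered 3 that difference was -0.34 (adjusted p = 0.0334). Fkbp4, the cochaperone that opposes Fkbp5 in the receptor complex, averaged 356 CPM in rTMS-MSCs, 326 CPM in MSCs and 351 CPM in OGDR and passed no test. Sgk3 averaged 9.22 CPM in rTMS-MSCs, 9.08 CPM in MSCs and 11.05 CPM in OGDR and passed no test either. Relative to MSCs none of the 10 rose in rTMS-MSCs and 1 fell, where 7.14% of all tested genes rose and 10.9% fell. In rTMS-MSCs against OGDR 3 rose and 2 fell, where 16.2% of all tested genes rose and 16.2% fell.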

How the data were processed

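RNA of 12 libraries labelled PC12 was sequenced after capture with oligo(dT), per the labels' protocols. The submitters' processing notes name the build mRatBN7.2 and the tools HISAT2 2.1.0, HTSeq 0.11.2 and DESeq2 1.40.1. The sources used here do not give the strand setting. The deposited table holds the authors' raw read counts for 30454 Ensembl genes and 5 HTSeq summary lines, which entered neither depth nor tests. Reads on no feature made up 51.7% to 52.7% of the reads in the table. The series text speaks of 20 samples and a microarray, and the 12 libraries with counts were used.

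Counts were analysed in R 4.3.3 with edgeR 4.0.16. Genes were kept by filterByExpr (minimum count 10, minimum total 15, 13692 of 20776 genes with a count), scaled by TMM and tested with the quasi-likelihood F test in 1 fit over the 3 groups, with Benjamini-Hochberg adjustment over every gene tested, at a threshold of 0.05. CPM are TMM-scaled, and intervals are 95%. Alternatives were other scalings and filters, DESeq2 1.42.0, limma 3.58.1 with voom, a fit of the 8 libraries compared, a replicate block, and libraries left out. Promoter windows came from RefSeq tables of GRCr8.

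The members and gene lists were chosen with earlier results of these data known. Of 81 symbols in the lists of receptor machinery, raised genes and lowered genes, 80 matched the table. All 9 members were described, and from each list up to 4 genes per direction and comparison with the smallest p were named, together with the genes whose promoter windows held the looser element, which were chosen after the search. A few genes that these rules name are not reported here.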

Additional observations from a re-analysis of the deposited data

Results flagged for a closer look

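A library stood apart from the other 3 of its group, by a test on the gap at the end of the range against the whole range, in 2 of 24 member and group combinations. Chance gives such a gap in about 1 of 20 groups. Nr3c1 had 109.6 CPM in library 3 of MSCs, while the other MSCs libraries held 99.1 to 99.3 CPM. Cebpd had 69.4 CPM in library 3 of rTMS-MSCs, while the other libraries of that group held 57.2 to 58.5 CPM. Both are the libraries at the ends of the second principal component, and the part that library differences played in these values was not tested.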

How the results depend on the processing

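The gene and member counts, the members' differences and 51 calls of named list genes were recomputed under 21 alternatives, and no called difference changed sign. Among the differences that were not called, those between rTMS-MSCs and MSCs crossed zero for Fkbp5 (-0.0080 to 0.079), Sgk1 (-0.067 to 0.028), Cebpd (-0.22 to 0.0006) and Gpd1 (-0.015 to 0.050). The member counts of 7 for MSCs against OGDR and 8 for rTMS-MSCs against OGDR held under all 21, and the log2 differences of Fkbp5, Tsc22d3, Sgk1, Gpd1, Glul, Fam107a, Cebpd and Nr3c1 kept their side of the threshold there. In rTMS-MSCs against MSCs, the 1 member called (Nr3c1) stayed called under 20 alternatives, with log2 differences of -0.34 to -0.20. Without both libraries numbered 3 of the stem cell groups 0 members were called, and genes called fell to 677 (154 higher, 523 lower), against 2475 with all libraries. By DESeq2, all libraries gave 3062. Leaving out a library at a time gave 1006 (without MSCs 3) to 3196 genes for rTMS-MSCs against MSCs, 2243 to 3451 for MSCs against OGDR and 3461 to 4683 for rTMS-MSCs against OGDR, with 1, 7 and 8 members called throughout. Without MSCs 1 the count for rTMS-MSCs against MSCs was 1313, and without rTMS-MSCs 3 it was 1480. Of the 51 calls of named list genes, 39 held under every alternative. Replicate numbers gave no clear pairing of the libraries, since 1 of 12 same-numbered pairs correlated above 0.1 in its deviations (r from -0.205 to 0.128). The same-numbered pairs of MSCs and OGDR gave 0.029, 0.087, 0.128 and 0.084, and whether these are weakly paired was not tested. With the replicate block 2577 genes were called for MSCs against OGDR, 1995 for rTMS-MSCs against MSCs and 4185 for rTMS-MSCs against OGDR, and the member counts were 7, 1 and 8. Fam107a, at 15 to 146 counts per library, was the tested member most limited by depth. The causes of these changes were not tested.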

Other observations

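Cebpb, a C/EBP factor related to Cebpd and listed among the genes raised by glucocorticoids, varied within every group. It had 10.1, 19.3, 96.1 and 65.9 CPM in rTMS-MSCs, 69.9, 68.4, 28.5 and 9.46 CPM in MSCs and 69.8, 23.1, 65.5 and 10.1 CPM in OGDR. Its within-group SD of log2 CPM was 1.4, and 0 of 10608 genes with a mean of at least 5 CPM had a larger one (median 0.124). The same SD was 0.177 for Cebpd and 0.0876 for Cebpg. No comparison of Cebpb between the groups passed the test.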
